A study of Mus musculus with 12 samples.

Results

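The OR37 receptors Olfr155, Olfr156 and Olfr157 were followed in whole main olfactory epithelium (MOE), the nasal sheet that carries the odour-sensing neurons. They were taken by gene symbol in the annotation of the Mouse Gene 1.0 ST array, and each matched 1 probe set, giving 3 of the 28944 experimental probe sets. All 3 passed the filter on low signal, which kept 28151 probe sets averaging over 5 on the log2 scale. H2be-KO mice lacked the coding sequence of H2be, a histone gene normally transcribed in chemosensory neurons, and made GAP43-mCherry, a red fluorescent protein held at the cell membrane, from that locus instead. The line came from first crosses with C57Bl/6. WT mice had the intact gene. Both genotypes were 6 months old, and the design description of the series gives males and females in equal number. A figure legend of the study instead names male H2be-KO mice for its 6-month microarray values, and no label gives the sex of an array. There were 6 arrays of H2be-KO and 6 of WT, each of RNA pooled from a pair of animals, so the spread given here is that between pools.

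Olfactory receptors are G protein-coupled receptors, and each olfactory neuron transcribes a single receptor gene from a very large repertoire. The OR37 group is unusual within the class II receptors. Its proteins carry an insertion in the third extracellular loop, and its neurons lie clustered on the central turbinates rather than scattered over a broad zone. Axons of neurons with different OR37 receptors reach neighbouring glomeruli of the ventral olfactory bulb. Long-chain aldehydes activate these glomeruli, with pentadecanal assigned to OR37A, hexadecanal to OR37B and heptadecanal to OR37C. RefSeq lists OR37A as a synonym of Olfr155, OR37B of Olfr156 and OR37C of Olfr157.

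The genes lie on chromosome 4 in a short receptor cluster. Within 1 Mb of the members RefSeq places 8 receptor genes in the order Olfr70, Olfr71, Olfr269-ps1, Olfr159, Olfr29-ps1, Olfr156, Olfr157 and Olfr155. Of the 5 that are not members, Olfr159 carries the synonym OR37E and the transcribed pseudogene Olfr29-ps1 carries OR37D. All but Olfr269-ps1 also share the subfamily label MOR262. The receptors are close relatives, and probes can hybridise with more than 1 of them. A further probe set of the array is annotated to 3 symbols, Olfr159, Olfr29-ps1 and Olfr155, and was kept apart. Single-gene statements on this family are uncertain to that extent.

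The 250 bases before the RefSeq start are printed for Olfr155 and Olfr156, since 2 of the 3 members matched an entry of the promoter table (RefSeq, GRCm38.p6). The stretch before Olfr157 was not analysed here. They were searched on both strands for TAATTA and TAATGA, cores bound by homeodomain proteins such as Lhx2, and for CCCNNGGG, the core of Ebf sites. Matches are in capitals. The Olfr155 stretch is chr4:43854042-43854291 on the + strand, and the Olfr156 stretch is chr4:43821434-43821683 on the - strand.
Olfr155: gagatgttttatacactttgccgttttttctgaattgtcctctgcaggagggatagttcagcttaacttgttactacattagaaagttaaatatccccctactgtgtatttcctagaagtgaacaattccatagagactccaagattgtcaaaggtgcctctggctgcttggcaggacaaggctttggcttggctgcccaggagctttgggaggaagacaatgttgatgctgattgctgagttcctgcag
Olfr156: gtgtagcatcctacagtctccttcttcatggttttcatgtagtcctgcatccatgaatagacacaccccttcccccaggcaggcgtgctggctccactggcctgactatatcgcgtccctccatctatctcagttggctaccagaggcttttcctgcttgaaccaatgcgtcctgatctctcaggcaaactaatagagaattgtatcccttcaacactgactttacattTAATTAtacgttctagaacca
The only match in these 2 stretches was a TAATTA in Olfr156, from 21 to 16 bases before the start. TAATTA was found in 18.1% of 943 receptor windows of this length and in 4.90% of 27025 windows of all genes. TAATGA was present in 25.1% of receptor windows and 8.77% of all windows, and CCCNNGGG in 2.76% and 11.7% of them. The windows of Olfr155 and Olfr156 were identical at 46.4% of aligned positions. Over all pairs of cluster genes with a window the share ran from 44.8% to 50.5%, and it was 47.9% for Olfr155 and Olfr70. Gene models of receptors can begin near the coding sequence, and the true start of transcription was not measured here.

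Across arrays the data were close to each other, with correlations of 0.951 to 0.985 over the tested probe sets and array medians of 7.84 to 7.90. For H2be, listed as H2bc21, H2be-KO pools averaged 11.65 ± 0.12, against 11.89 ± 0.17 for WT pools (SD, n = 6 each, exact permutation p = 0.0195), and whether its probes lie in the replaced coding sequence was not tested. The enamel gene Amelx was at 11.87 and 11.66 in H2be-KO replicates 1 and 6, against at most 6.03 in every other array. Leaving both of these arrays out changed no direction at an OR37 probe set. Omp, the classical marker of mature olfactory neurons, was bright in every array, with means of 12.90 ± 0.07 for H2be-KO and 12.90 ± 0.07 for WT (SD, n = 6 each).

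The first question was where the OR37 probe sets stood among the receptors. Their signals lay a little below the middle. Averaged over the 12 arrays, Olfr157 ranked 560, Olfr156 ranked 591 and Olfr155 ranked 657 from the brightest of 1034 receptor probe sets with a single symbol. The median of those was 7.45, with 90% of them between 5.53 and 9.45. Signal also depends on the probes of each set, so this order is one of signals and not of transcript amounts. A neuron-rich tissue gives a receptor signal that combines how many neurons chose the gene with how much RNA each of them holds, and fewer cells cannot be told apart from less RNA per cell.

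**Figure D1:**
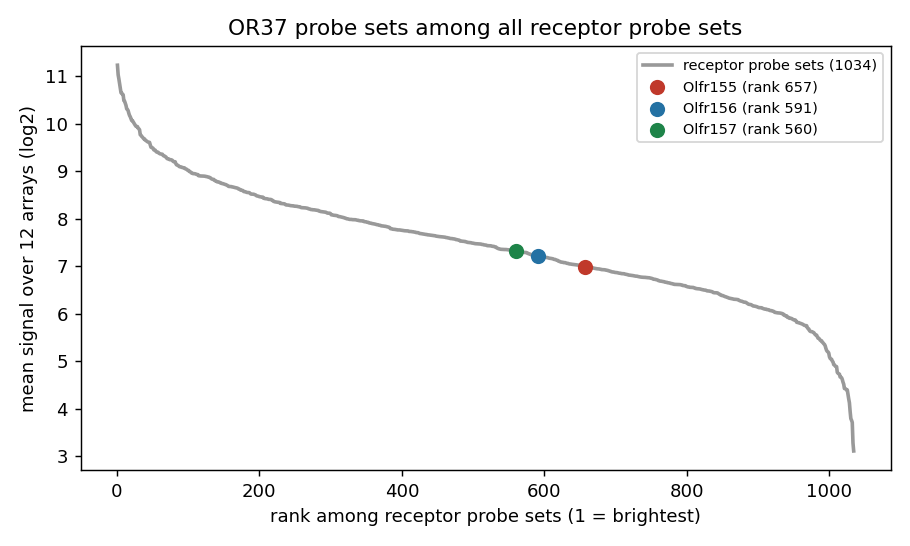
Mean signal over 12 arrays (log2, vertical axis) of 1034 receptor probe sets ranked from the brightest (horizontal axis), with the OR37 probe sets as coloured points. Olfr157, Olfr156 and Olfr155 fall at ranks 560, 591 and 657, on the shallow middle part of the curve.

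The place of each member within single arrays moved over a moderate range. Olfr155 lay at percentiles 31.2 to 49.7 of the other receptor probe sets in H2be-KO arrays (median 34.0) and at 25.7 to 43.1 in WT arrays (median 34.3). Olfr156 lay at 29.6 to 52.9 in H2be-KO (median 37.0) and at 36.4 to 56.3 in WT (median 46.2). Olfr157 lay at 34.8 to 48.0 in H2be-KO (median 45.9) and at 40.1 to 57.4 in WT (median 47.7). The ranges overlapped for every member.

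Signals of the members varied less between arrays of a genotype than those of most receptors. The residual SD was 0.17 for Olfr155, 0.19 for Olfr156 and 0.15 for Olfr157, against a median of 0.26 over 1003 tested receptor probe sets. Among receptor probe sets within 0.25 of its own mean log2 signal, 2 of 154 had a lower SD than Olfr157, 9 of 168 than Olfr155 and 26 of 156 than Olfr156. The OR37E gene Olfr159, not a member, had a residual SD of 0.34, at percentile 75.4 of receptor probe sets. The probe set annotated to Olfr159, Olfr29-ps1 and Olfr155 had a residual SD of 0.17, at percentile 8.67. Olfr71 of the same cluster had an SD of 0.18 in H2be-KO and 0.20 in WT, and Olfr70 of 0.26 and 0.21. A low spread was thus not particular to the members. These are descriptions of signals on 12 arrays.

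The second question was whether loss of H2be altered the OR37 receptors. None of the 3 probe sets differed between H2be-KO and WT beyond the spread between arrays. Olfr155 was slightly higher in H2be-KO, and Olfr156 and Olfr157 were slightly lower. Their 95% intervals ran from 0.759-fold, the low end for Olfr156, to 1.27-fold, the high end for Olfr155.

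Olfr155, the receptor OR37A, read 6.80 at the lowest, 7.04 at the median and 7.34 at the highest in H2be-KO arrays, against 6.75, 6.92 and 7.14 in WT arrays. The groups overlapped, and replicate 2 was the single H2be-KO array above every WT array. The means were 7.05 ± 0.18 in H2be-KO and 6.92 ± 0.17 in WT (SD, n = 6 each), which is 1.09-fold higher with a 95% interval of 0.939 to 1.27 (limma adjusted p = 0.763, exact permutation p = 0.249). The log2 difference of 0.13 became 0.0698 without H2be-KO replicate 2, and 0.22 with array weights in limma (unadjusted p = 0.0320, adjusted p = 0.324).

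Olfr156, the receptor OR37B, read 6.98, 7.04 and 7.47 at the lowest, median and highest of the H2be-KO arrays, against 7.05, 7.36 and 7.49 in WT arrays. In H2be-KO replicates 3, 4 and 6 the signal was under that of each WT array, replicate 5 was level with the dimmest WT array, and replicates 1 and 2 lay within the WT range. WT replicates 3 and 6 were low for their group. The means were 7.13 ± 0.19 in H2be-KO and 7.30 ± 0.19 in WT (SD, n = 6 each), a ratio of 0.892 with a 95% interval of 0.759 to 1.05 (limma adjusted p = 0.753, exact permutation p = 0.152). H2be-KO replicate 2 bore on this value. Without it the difference of -0.16 became -0.23 on the log2 scale, with an unadjusted limma p of 0.0429 and an adjusted p of 0.761.

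Olfr157, the receptor OR37C, read 7.18, 7.23 and 7.59 at the lowest, median and highest of the H2be-KO arrays, against 7.21, 7.32 and 7.54 in WT arrays. The groups covered nearly the same range, with H2be-KO replicate 1 the brightest of all arrays. The means were 7.30 ± 0.16 in H2be-KO and 7.36 ± 0.13 in WT (SD, n = 6 each), a ratio of 0.965 with a 95% interval of 0.840 to 1.11 (limma adjusted p = 0.873, exact permutation p = 0.552).

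**Figure D2:**
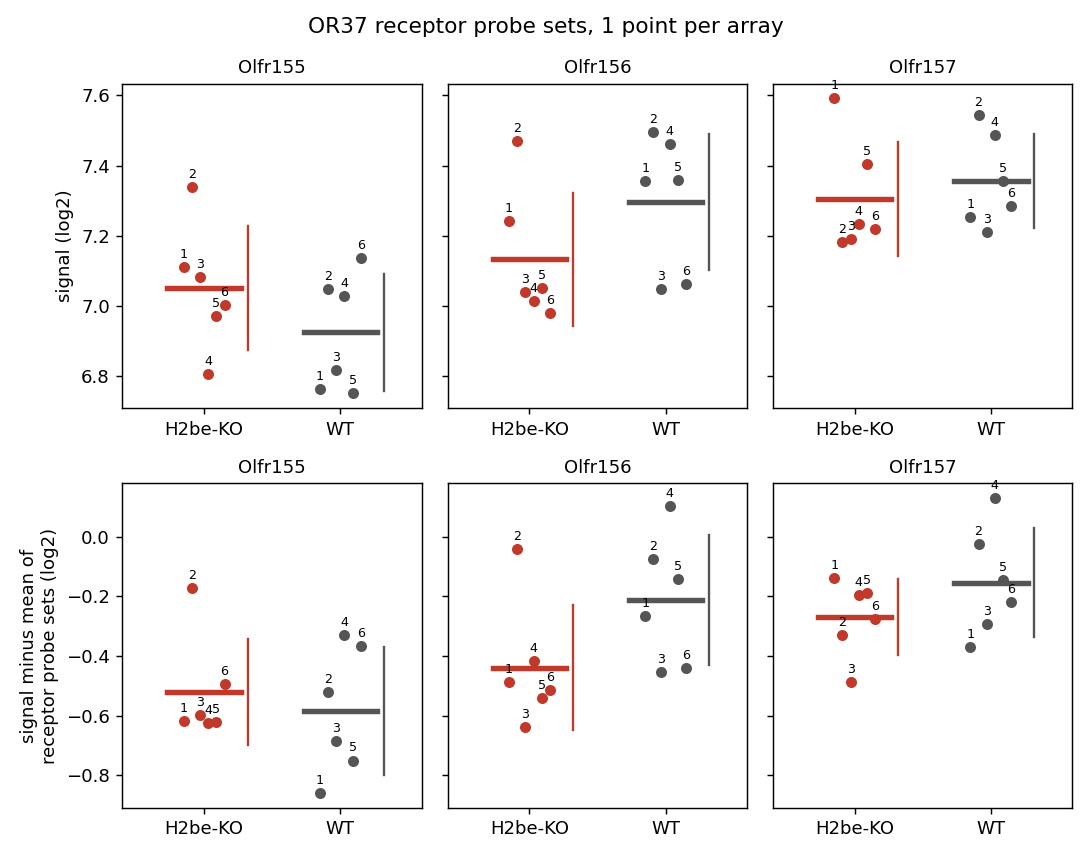
Signal (log2, upper row) and signal minus the mean of 1003 receptor probe sets in the same array (log2, lower row) of Olfr155, Olfr156 and Olfr157, 1 numbered point per array, for H2be-KO (red) and WT (grey), where the thick bar is the mean and the thin line spans 1 SD either way. The genotypes overlap for each gene, and H2be-KO replicate 2 stands above the other H2be-KO arrays for Olfr155 and Olfr156.

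In limma 0 of the 3 OR37 probe sets passed at an adjusted p under 0.05, as did 0% of all 28151 tested. At an unadjusted p under 0.05, 0 of 3 were higher, where 3.78% of all tested probe sets (1065) and 4.59% of receptor probe sets (46 of 1003) were. At the same threshold 0 of 3 were lower, where 1.77% of all tested probe sets (498) and 0.798% of receptor probe sets (8 of 1003) were. By exact permutation, 1121 of all tested probe sets were higher and 572 lower, and no OR37 probe set was among them. The split depended on scaling, with 827 higher and 899 lower after quantile normalization and 815 and 699 after median centring. The OR37 members kept their directions under both.

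The differences of the members were spread over the distribution of receptor differences, whose median was 0.06 with 90% between -0.18 and 0.32 on the log2 scale. Olfr155, at 0.13, lay at percentile 67.1 of the other receptors. Olfr157, at -0.05, lay at percentile 21.2. Olfr156, at -0.16, lay at percentile 5.89, so most receptors had a more positive difference. Among receptor probe sets of similar signal, 11 of 156 had a lower difference than Olfr156, 32 of 154 than Olfr157 and 101 of 168 than Olfr155.

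Levels were then taken relative to the receptors of the same array. The mean over 1003 receptor probe sets was 7.57 ± 0.12 in H2be-KO and 7.51 ± 0.09 in WT (SD, n = 6 each, exact permutation p = 0.320). Relative to it, Olfr156 was at -0.64, -0.50 and -0.04 at the lowest, median and highest of H2be-KO, against -0.45, -0.20 and 0.10 in WT. In H2be-KO replicates 1, 3, 5 and 6 it was under that of each WT array. The means were -0.44 ± 0.21 in H2be-KO and -0.21 ± 0.22 in WT (SD, n = 6 each), a difference of -0.23 that did not pass the threshold (exact permutation p = 0.0974). Without H2be-KO replicate 2 it was -0.31 (exact permutation p = 0.0195). Leaving out any other single array gave between -0.28 and -0.16, with the threshold not passed.

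Olfr157 relative to the receptors averaged -0.27 ± 0.13 in H2be-KO and -0.15 ± 0.18 in WT (SD, n = 6 each, exact permutation p = 0.245). Olfr155 averaged -0.52 ± 0.18 in H2be-KO and -0.59 ± 0.21 in WT (SD, n = 6 each, exact permutation p = 0.593). The positive sign for Olfr155 rested on H2be-KO replicate 2, at -0.17, and without that array the difference was -0.0053.

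The third question was whether the members responded alike. Within each array the signal of one member was subtracted from that of another, which removes the scaling of the array, and 3 pairs were compared. Olfr155 minus Olfr156 was -0.21, -0.10 and 0.04 at the lowest, median and highest of H2be-KO arrays, against -0.61, -0.44 and 0.08 in WT arrays. All H2be-KO arrays lay above 5 of the 6 WT arrays, and WT replicate 6 lay above them. The means were -0.08 ± 0.10 in H2be-KO and -0.37 ± 0.26 in WT (SD, n = 6 each). They differed by 0.29 (95% interval 0.035 to 0.515 from the exact permutation test, exact permutation p = 0.0325), which did not hold after adjustment over the 3 pairs (adjusted p = 0.0975). The unadjusted call ended when H2be-KO replicate 3 or 6, or WT replicate 1, 2, 4 or 5, was left out, with differences of 0.24 to 0.28 (exact permutation p = 0.0584 to 0.0606). Without WT replicate 6 the difference was 0.38 (exact permutation p = 0.00216, the smallest those 11 arrays allow).

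The other pairs did not pass the threshold with all arrays kept. Olfr155 minus Olfr157 averaged -0.25 ± 0.25 in H2be-KO and -0.43 ± 0.16 in WT (SD, n = 6 each), a difference of 0.18 with a 95% interval of -0.075 to 0.46 (exact permutation p = 0.162, adjusted p = 0.243). Without H2be-KO replicate 2 it was 0.0973 (exact permutation p = 0.314). Olfr156 minus Olfr157 averaged -0.17 ± 0.24 in H2be-KO and -0.06 ± 0.12 in WT (SD, n = 6 each), a difference of -0.11 with a 95% interval of -0.32 to 0.135 (exact permutation p = 0.318, adjusted p = 0.318). Without H2be-KO replicate 2 this last value was -0.20 (exact permutation p = 0.0195). That array was the only one of H2be-KO in which Olfr156 was brighter than Olfr157.

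**Figure D3:**
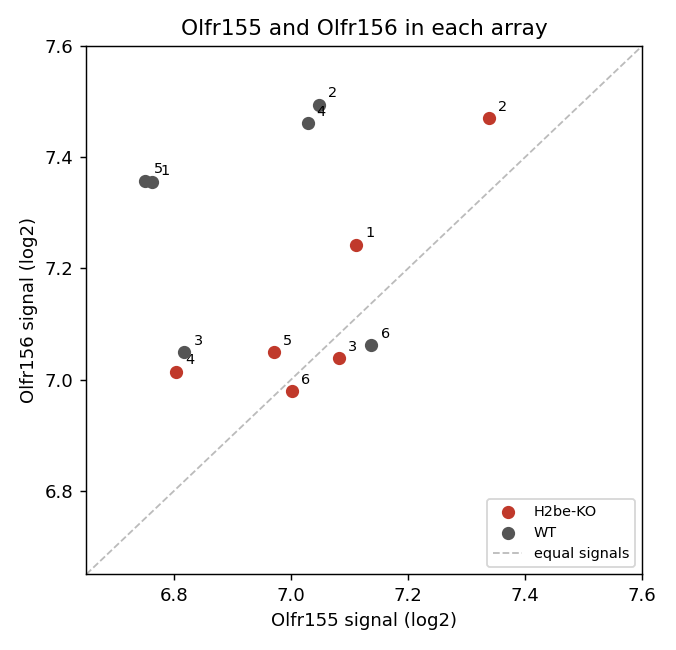
Signal of Olfr156 (log2, vertical axis) against that of Olfr155 (log2, horizontal axis), 1 point per array numbered by replicate, for H2be-KO (red) and WT (grey), with a dashed line of equal signals. H2be-KO arrays lie within 0.21 of the line, whereas 5 of the 6 WT arrays lie farther above it and WT replicate 6 lies 0.08 below it.

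The members did not vary together over the 12 arrays to a degree that these data resolve. Olfr156 and Olfr157 had a Pearson r of 0.45 (permutation p = 0.141) and a Spearman rho of 0.41 (permutation p = 0.185), and r was 0.56 without the 2 arrays farthest from the median of Olfr156. Olfr155 and Olfr156 had an r of 0.20 (permutation p = 0.526, rho 0.22 with permutation p = 0.486, r 0.08 without the 2 farthest arrays). Olfr155 and Olfr157 had an r of 0.09 (permutation p = 0.772, rho -0.04 with permutation p = 0.905, r 0.47 without the 2 farthest arrays). These Pearson values had an adjusted p of 0.772 over 6 relations computed. Within genotypes, Olfr155 and Olfr156 had an r of 0.86 in H2be-KO (exact permutation p = 0.0194, adjusted p = 0.233 over 12 such values) and of -0.01 in WT (exact permutation p = 0.978). The H2be-KO value was 0.56 without replicate 2. Olfr156 and Olfr157 had an r of 0.09 in H2be-KO, which was 0.91 without replicate 2, and of 0.81 in WT (exact permutation p = 0.887 in H2be-KO and 0.0722 in WT). Differences between genotypes in these values were not tested.

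Neighbouring genes of the cluster gave values of the same order. The OR37E gene Olfr159 was dim, at percentile 14.1 of receptor probe sets, and read 5.52, 6.34 and 6.78 at the lowest, median and highest of H2be-KO, against 5.75, 6.12 and 6.44 in WT. It was 0.15 higher on the log2 scale in H2be-KO (95% interval -0.21 to 0.52, limma adjusted p = 0.809, exact permutation p = 0.448). The probe set annotated to Olfr159, Olfr29-ps1 and Olfr155 read 7.92, 8.25 and 8.33 in H2be-KO, against 7.83, 8.12 and 8.16 in WT, and H2be-KO replicates 1, 2, 3 and 5 lay above every WT array. It was 0.14 higher (95% interval -0.08 to 0.35, limma adjusted p = 0.756, exact permutation p = 0.182), close to the 0.13 of the Olfr155 probe set.

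Olfr70 and Olfr71, the MOR262 receptors at the far end of the cluster, both read lower in H2be-KO. Olfr71 read 6.74, 7.10 and 7.25 at the lowest, median and highest of H2be-KO, against 7.17, 7.32 and 7.67 in WT, with 4 H2be-KO arrays under the whole WT range. The difference was -0.30 (95% interval -0.54 to -0.071, exact permutation p = 0.0195, limma adjusted p = 0.753). Olfr70 averaged 8.15 ± 0.26 in H2be-KO and 8.32 ± 0.21 in WT (SD, n = 6 each, exact permutation p = 0.247).

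**Figure D4:**
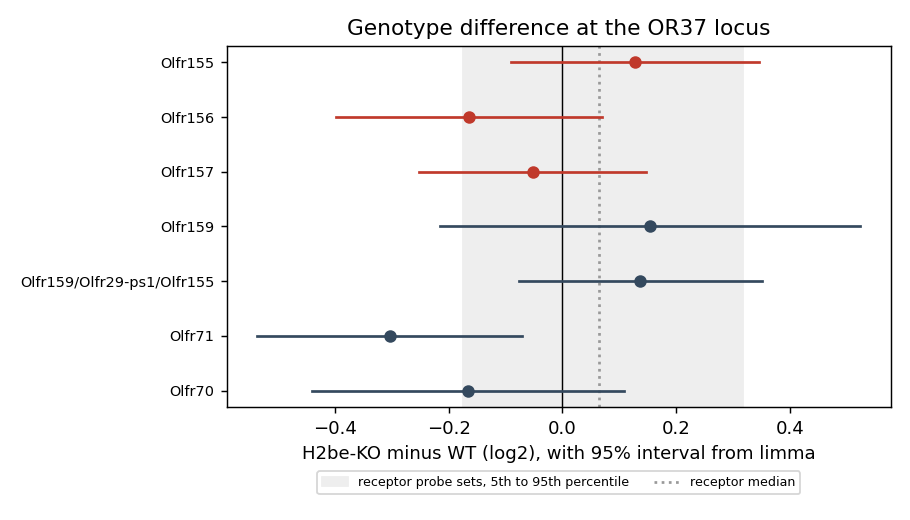
Genotype difference (H2be-KO minus WT, log2, horizontal axis) with its 95% interval from limma for the OR37 members (red) and the other probe sets of the cluster (dark blue), over the range of 90% of receptor probe sets (grey band) and their median (dotted line). Intervals of Olfr155, Olfr156 and Olfr157 include 0, and that of Olfr71 runs from -0.54 to -0.071.

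The genes whose signal followed a member most closely over the 12 arrays were picked by Pearson correlation among 20008 other named probe sets, as a description. The highest of so many correlations over 12 arrays is large for unrelated genes too, and how large was not tested. Olfr156 was followed by the coagulation factor gene F12 (r = 0.97), the Wnt inhibitor Dkk1 (0.96), Reep1, a receptor expression enhancing protein (0.96), the olfactory receptor Olfr54 (0.95) and Cdk5r1, an activator of the kinase Cdk5 (0.95). For Olfr157 they were the immunoglobulin superfamily gene Igsf9 (0.91), Hpdl (0.88), the agouti gene a (0.88), the postsynaptic scaffold gene Shank1 (0.87) and the ubiquinone synthesis gene Coq7 (0.86). For Olfr155 they were the cilia-associated gene Maats1 (0.88), Armc2 (0.87), the F-box gene Fbxl12 (0.87), the potassium channel interactor Kcnip4 (0.86) and the proton pump subunit gene Atp6v1g1 (0.83). No gene was on more than 1 of these lists. Olfr54 was the only receptor on them. Igsf9 and Olfr157 shared their brightest H2be-KO array, replicate 1.

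Factors that act on receptor genes in these neurons were examined beside the members. Of 26 probe sets for 19 regulators of receptor choice, 0 were higher and 0 lower at an unadjusted limma p under 0.05. At that threshold 3.78% of all tested probe sets were higher and 1.77% lower. The median difference of the regulators was 0.08, against 0.02 over all tested probe sets. Lhx2, the homeodomain factor required for most class II receptors, read 10.87 to 11.13 in H2be-KO and 10.77 to 11.20 in WT (exact permutation p = 0.981). Ebf1, which binds receptor promoters, read 10.68 ± 0.24 in H2be-KO and 10.65 ± 0.15 in WT (SD, n = 6 each, exact permutation p = 0.760). The smallest p among them was that of Ddit3, a factor of the unfolded protein response, at 8.06 ± 0.21 in H2be-KO and 7.84 ± 0.19 in WT (SD, n = 6 each, exact permutation p = 0.0866).

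Of 19 probe sets for 16 of 17 genes of receptor trafficking and odour transduction, 0 were higher and 0 lower at the same threshold. Of all tested probe sets 3.78% were higher and 1.77% lower. The median difference of the list was 0.01. Reep1 read 9.99 ± 0.12 in H2be-KO and 10.13 ± 0.13 in WT (SD, n = 6 each, exact permutation p = 0.0866). Slc24a4, an ion exchanger of olfactory cilia, averaged 10.96 ± 0.08 in H2be-KO and 11.08 ± 0.13 in WT (SD, n = 6 each, exact permutation p = 0.0498), and did not pass in limma. Adcy3, the adenylyl cyclase of olfactory cilia, read 11.73 ± 0.09 in H2be-KO and 11.81 ± 0.06 in WT (SD, n = 6 each, exact permutation p = 0.104). Cnga2, a channel subunit opened by cyclic nucleotides, read 12.20 ± 0.10 in H2be-KO and 12.11 ± 0.11 in WT (SD, n = 6 each, exact permutation p = 0.145).

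Genes graded along the dorsal to ventral axis of the epithelium, or guiding axons along it, held 1 lower and 0 higher among 8 probe sets at an unadjusted limma p under 0.05, with a median difference of 0.08, where 1.77% of all tested probe sets were lower and 3.78% higher. The lower one was the axon guidance ligand Sema3f, at 8.57 ± 0.10 in H2be-KO and 8.77 ± 0.15 in WT (SD, n = 6 each, exact permutation p = 0.0152, limma adjusted p = 0.753). WT replicate 4 was its highest array, at 9.05 with the next WT array at 8.79. The axon guidance receptor Nrp2 read 10.08 ± 0.16 in H2be-KO and 9.95 ± 0.09 in WT (SD, n = 6 each, exact permutation p = 0.106).

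Markers of the cell types in the tissue are given because the makeup of a pool can move a receptor signal. The calls are at an unadjusted limma p under 0.05, where 3.78% of all tested probe sets were higher and 1.77% lower, and the medians are of log2 differences, against 0.02 over all tested probe sets. For mature neurons 0 of 13 probe sets were called (median 0.03), and the mean of the list per array was 10.68 to 10.91 in H2be-KO and 10.78 to 10.86 in WT. For immature neurons 1 of 8 was higher (median 0.14), Gap43 at 10.24 ± 0.20 in H2be-KO and 9.99 ± 0.17 in WT (SD, n = 6 each, exact permutation p = 0.0455). The start of Gap43 is part of the reporter in the targeted allele, and whether its probes lie in that part was not tested. For progenitors 1 of 4 was higher (median 0.19), the topoisomerase gene Top2a (limma p = 0.0495, exact permutation p = 0.0801), and for horizontal basal cells 1 of 4 was lower (median -0.19), the integrin gene Itgb4, at -0.26 (exact permutation p = 0.0325). WT replicate 4 was the highest WT array for Itgb4, at 8.41 with the next at 8.11, and the lowest for Gap43, at 9.67. For Top2a it lay within the range of the other WT arrays. For sustentacular, ciliated and blood cells and for tooth and bone, 0 of 4, 0 of 3, 0 of 1 and 0 of 4 were called, with medians of 0.08, -0.17, 0.11 and 0.14 in that order. With the mean of the mature neuron markers subtracted from each array, the differences were 0.12 for Olfr155, -0.17 for Olfr156 and -0.06 for Olfr157. The part of other cell types in the OR37 values was not tested.

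**Figure D5:**
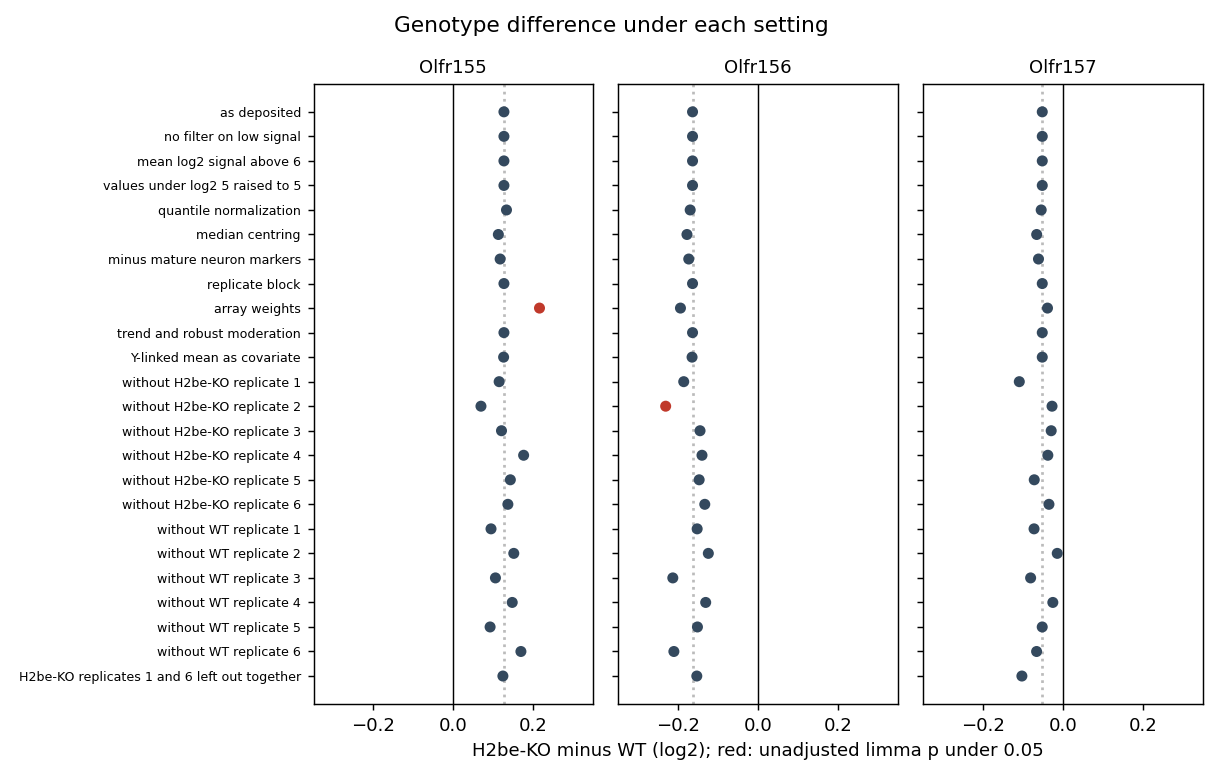
Genotype difference (H2be-KO minus WT, log2, horizontal axis) of Olfr155, Olfr156 and Olfr157 under each processing setting and with arrays left out (rows), with the value as deposited as a dotted line and red points for an unadjusted limma p under 0.05. Signs are the same in every row, and the red points are Olfr155 with array weights, at 0.22, and Olfr156 without H2be-KO replicate 2, at -0.23.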

How the data were processed

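Whole MOE of H2be-KO and WT mice was hybridised to Mouse Gene 1.0 ST arrays, with the group and replicate number of each array taken from its title. Arrays were checked for outliers by the authors before IterPLIER summaries with sketch-quantile normalisation were made in Affymetrix Expression Console. The deposited values are log2 signals of 35556 probe sets. A change common to most transcripts is therefore not visible. Tool versions, array batches and the genome build are not given in the sources used here. Control probe sets (6612), told by their place in the numbering, were left out. Of the 28944 others, 21789 have 1 symbol in the platform annotation, 1621 several and 5534 none.

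The 28151 probe sets averaging over 5 on the log2 scale were fitted with genotype as the only term in limma 3.58.1 (R 4.3.3), after the study's methods, with Benjamini-Hochberg adjustment over all of them. Standard errors of the log2 differences had a median of 0.112. Single values carry a two-sided exact permutation p over the choices of 6 of 12 arrays, whose smallest value is 0.00216. Correlations used 100000 resamples over 12 arrays and exact permutations within a genotype. Python 3.11.15 was used for these. Signals are not counts, and the number of arrays limits the precision. The labels do not say whether a replicate number marks a shared litter or day. For genotype differences, p-values set the difference against the spread between pools.

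Genes named are the members, the receptors within 1 Mb of them, the 5 probe sets most correlated with each member, up to 4 genes of smallest p per list, and Omp, Cnga2, Adcy3, Lhx2, Ebf1 and H2be. Of several probe sets for a gene, values are those of the brightest. Members and lists were chosen with earlier results of these data known. A planned comparison of receptor proteins was not made, since protein sequences were not used here. Alternatives covered the filter, a floor, scaling, mature neuron markers, the replicate number as a block, array weights, moderation, a Y-linked covariate, exact tests, other receptor means and each array left out.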

Additional observations from a re-analysis of the deposited data

Results flagged for a closer look

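Values that stood apart within a genotype were sought with Dixon's criterion at 95%, which sets the gap to the nearest array against the whole range of the group. Of 142 groups of 6 arrays, 8 had such a value, where chance marks about 1 in 20 groups. H2be-KO replicate 2 accounted for 3 of them. Relative to the receptor mean it was the highest H2be-KO array for Olfr155, at -0.17 with the next at -0.49, and for Olfr156, at -0.04 with the next at -0.42. It was also the highest for Olfr156 minus Olfr157, at 0.29 with the next at -0.15. These 3 flags are not separate, since they reuse the receptor mean and the Olfr156 signal of that array. WT replicate 4 stood apart among WT arrays for the channel subunit gene Cngb1, at 10.99 with the next at 10.82, for Gap43, the lowest at 9.67, and for the ciliated cell factor Foxj1, at 9.68 with the next at 9.44. The erythroid gene Alas2 was at 9.57 in H2be-KO replicate 5 with the next at 8.71, and Igsf9 at 8.48 in H2be-KO replicate 1 with the next at 8.19. Their causes were not tested.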

How the results depend on the processing

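Olfr155, Olfr156 and Olfr157 kept their directions in the 24 alternatives run for each. The filters, the floor, the block, the moderation and the exact test left the differences themselves unchanged, so they say nothing on direction. Olfr155 was 0.22 higher with array weights (unadjusted limma p = 0.0320, not an exact test), and the cause was not tested. With single arrays left out it lay between 0.0698 and 0.18, Olfr156 between -0.23 and -0.12, and Olfr157 between -0.11 and -0.0143. Relative to the receptors, the ranges were -0.0053 to 0.12 for Olfr155, -0.31 to -0.16 for Olfr156 and -0.16 to -0.058 for Olfr157. Olfr155 minus Olfr156 lay between 0.24 and 0.38, Olfr155 minus Olfr157 between 0.0973 and 0.24, and Olfr156 minus Olfr157 between -0.20 and -0.0757. Leaving out H2be-KO replicates 1 and 6 together, chosen after seeing the data, gave 0.28 for Olfr155 minus Olfr156 and ended its unadjusted call (exact permutation p = 0.0857), with fewer arrays. Deviations of same-numbered arrays were positively correlated, from 0.0251 to 0.592, and the main tests left the numbers unpaired. Any deviation shared by a number therefore stays in the spread those tests used. Best matches between the genotypes were their own number for 4 of 6 H2be-KO and 4 of 6 WT arrays. With the replicate number as a block, Olfr155 minus Olfr156 kept 0.29 with an exact permutation p of 0.0625, and Olfr155, Olfr156 and Olfr157 stayed uncalled (unadjusted limma p = 0.213, 0.0728 and 0.601). That block called 2039 probe sets higher and 951 lower, and 118 and 18 receptors. Array weights called 2694 higher and 1405 lower, with 25 receptors lower, and quantile normalization 899 lower. With single arrays left out, 513 to 2265 were higher and 312 to 1554 lower, and among receptors 28 to 109 and 6 to 21. The higher count was 589, 2233 and 513 without H2be-KO replicates 3, 4 and 5 and 2265 without WT replicate 6. The lower count was 325 without H2be-KO replicate 5, and 312 and 1554 without WT replicates 4 and 6. For receptors, 28, 109 and 29 were higher without H2be-KO replicates 1, 4 and 5, and 21 lower without WT replicate 6. An adjusted call was made in none of these fits. The dim Olfr159 had the widest interval of the cluster, and 6 arrays per genotype limit the precision of every member.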
